A study of Mus musculus with 24 samples.

Results

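Gene expression on soft and stiff hydrogels was compared 12 h after CHIRON had been taken out of the medium of mouse embryonic stem cells (mESCs). The libraries were chosen by their labels alone, as all those at 12 h of the experiment that removed CHIRON. They numbered 4 of the 24 in the series, 2 from soft and 2 from stiff substrates. All cells were of the E14 line (129m wt) and were plated on StemBond hydrogels coated with fibronectin, where they spent 12 h in 2i+LIF with 1 µM PD03 and 3 µM CHIRON. CHIRON was then withdrawn, so that PD03 and LIF remained, and RNA was taken 12 h later from the groups called soft and stiff at 12 h. Control groups in 2i+LIF (0 h) and groups at 2 h came from the same experiment. In a second experiment of the same layout PD03 was withdrawn and CHIRON and LIF remained. Ribosomal RNA was depleted before library preparation, and reads were counted per gene. The model was 1 cell line, and the labels did not say whether the replicates of a group were separate cultures. The published legend on CHIRON removal speaks of experiments in triplicate, whereas the series holds 2 libraries for each group. P-values therefore measure only the spread between these libraries, which may be technical.

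Total counts at 12 h were 31111260 and 19393787 in the soft replicates and 23294430 and 22794995 in the stiff replicates. Since 2 libraries in a group say little about spread, it was estimated from 11 libraries of the CHIRON removal experiment, with total counts between 19393787 and 31111260. The soft replicates at 12 h were at opposite ends of these libraries in depth and in make-up. In soft replicate 2, 78.0% of counts fell on protein-coding genes and 16.9% on its 10 most abundant genes, compared with 85.3% and 9.23% in soft replicate 1. The stiff replicates lay between them, with 83.1% and 81.8% on protein-coding genes and 11.9% and 12.9% on the 10 most abundant. Counts of the soft replicates differed 12.8 times as much as sampling alone gives (chi-square over degrees of freedom) and those of the stiff replicates 6.53 times, which does not tell separate cultures from separate preparations of 1 culture. Among the controls, stiff replicate 2 at 0 h stood apart, at 33.3 on the second principal component where its replicate was at 5.31. Soft against stiff was therefore also compared without each of these libraries, and any further part they had in the results was not tested.

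CHIRON inhibits GSK3, the kinase that marks β-catenin for destruction, and so mimics a Wnt signal. Stabilised β-catenin acts with Tcf/Lef factors on target genes such as *Axin2* and *Sp5*, and in mESCs it relieves repression by Tcf7l1 and helps to sustain self-renewal. *Myc*, a known Wnt target, encodes a transcription factor that pairs with Max and drives growth genes, including those that build ribosomes.

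The libraries expressed the markers of mESCs at high levels. The summed level of 10 mESC markers was 6624 and 6961 CPM (counts scaled to library size) on soft and 6728 and 6672 CPM on stiff substrates. *Zfp42* was the most abundant by the mean over the 4 libraries, but *Nanog* exceeded it in soft replicate 2. Markers of other cells were far lower. The 10 fibroblast markers summed to 19.7 and 17.5 CPM on soft and 17.6 and 18.3 CPM on stiff substrates, with *Pdgfrb* the most abundant, and *Dcn*, a defining fibroblast proteoglycan, had 0 counts in all 4 libraries. The primitive endoderm markers summed to between 96.3 and 113.9 CPM, led by the laminin gene *Lama1*, and the trophectoderm markers to between 103.4 and 112.9 CPM, led by *Tfap2c*. *Foxa2*, of the endoderm, had 1 count in soft replicate 2 and 0 elsewhere. Neural markers summed to 126.9 and 129.2 CPM on soft and 136.1 and 135.8 CPM on stiff substrates, with the tubulin gene *Tubb3* the most abundant. Cleavage-stage markers summed to 173.6 and 149.1 CPM on soft and 195.5 and 175.5 CPM on stiff substrates. They were led by *Zscan4b*, whose near-identical copies share reads, so these levels are uncertain. Of the 8 tested, 1 had a log2 fold change above 0, soft against stiff, compared with 49.6% of all tested genes. Their median was −0.20. Between soft and stiff, 1 neural marker, *Pax6*, and 1 cleavage-stage marker, *Zscan4e*, were lower on soft substrates at an unadjusted p under 0.05, compared with 1.19% of all tested genes in edgeR.

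*Myc* (ENSMUSG00000022346, chromosome 15, 61985391 to 61990374 of GRCm38) had the smallest p of all genes in the comparison of soft with stiff. Its level was 8.73 and 8.83 CPM in the soft libraries and 13.7 and 15.4 CPM in the stiff libraries. Both soft libraries were below both stiff libraries, and the soft replicates were nearly equal. The log2 fold change, soft against stiff, was −0.73 (standard error 0.14, 95% interval −1.03 to −0.43), a ratio of 0.604 with an interval from 0.490 to 0.743. The unadjusted p was 7.7e-05, and the adjusted p over all genes was 0.999 (edgeR, Benjamini-Hochberg), so *Myc* did not pass the threshold of 0.05. DESeq2 gave it an adjusted p of 0.138 (Benjamini-Hochberg) on the same genes. Without the filter on low counts the adjusted p was 0.00028 (edgeR, Benjamini-Hochberg), in a fit where all genes shared 1 prior spread. Over the alternatives the adjusted p of *Myc* ranged from 0.00028 to 1. In bulk RNA, fewer cells with *Myc* and less *Myc* RNA per cell cannot be told apart.

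At 0 h *Myc* had been at 45.9 and 40.8 CPM on soft and 38.5 and 45.4 CPM on stiff substrates, where the groups overlapped. The log2 fold change between substrates was then 0.047 (95% interval −0.20 to 0.29). From there *Myc* fell on soft (log2 fold change −2.30, adjusted p = 1.6e-09) and on stiff substrates (−1.53, adjusted p = 1.7e-07, both from edgeR with Benjamini-Hochberg adjustment). The difference between these responses was −0.78 (95% interval −1.16 to −0.39, unadjusted p 5.5e-04, adjusted p 0.9999 in edgeR with Benjamini-Hochberg adjustment). At 2 h, *Myc* was at 36.0 and 29.1 CPM on soft substrates and at 32.1 CPM in the stiff library, within the soft range.

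**Figure D1:**
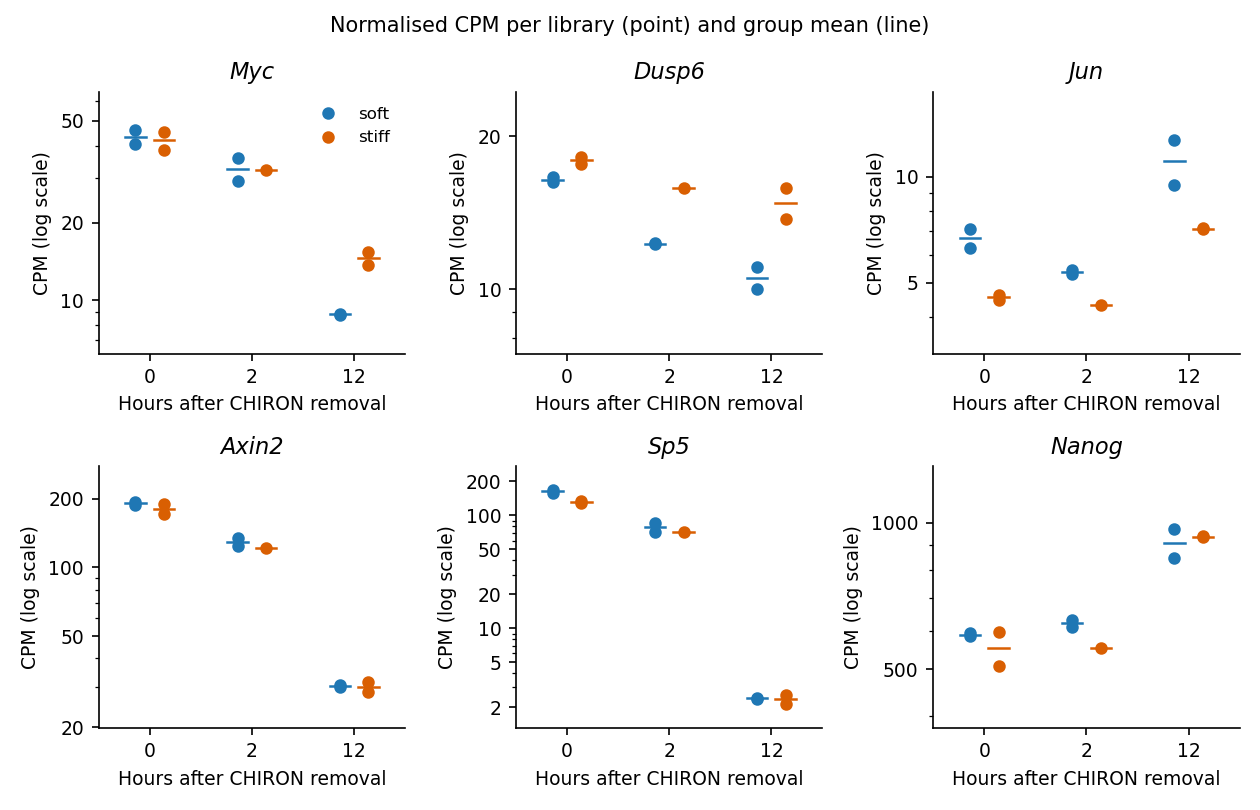
Normalised CPM (log scale) of 6 genes in each library (points) with the group mean (line), on soft and stiff substrates at 0, 2 and 12 h after CHIRON removal. At 12 h *Myc* and *Dusp6* lay lower and *Jun* higher in both soft libraries than in both stiff libraries, whereas *Axin2*, *Sp5* and *Nanog* overlapped.

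No gene passed the threshold for soft against stiff at 12 h. Of 14615 protein-coding genes tested, edgeR called 0 after Benjamini-Hochberg adjustment and 471 (3.22%) at an unadjusted p under 0.05, 297 higher (2.03%) and 174 lower (1.19%) on soft substrates. DESeq2 called 0 after adjustment and 273 unadjusted. The smallest adjusted p was 0.999 in edgeR (Benjamini-Hochberg). The median log2 fold change over all tested genes was −0.0016, with quartiles of −0.096 and 0.10. Without soft replicate 1, edgeR called 0 genes and 821 unadjusted, without soft replicate 2 it called 0 and 435, and without stiff replicate 2 at 0 h, a comparison chosen after seeing the data, 0 and 533. Without the filter on low counts 15 genes passed, *Myc* among them. Most of the others were satellite-like genes that share reads, and in that fit all genes shared 1 prior spread.

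The genes that followed *Myc* by p missed the threshold as well, each with an adjusted p of 0.999 (edgeR, Benjamini-Hochberg). Among those lower on soft substrates was *Cd37*, a tetraspanin of the cell surface known from lymphocytes. Its level was 39.3 and 42.2 CPM on soft and 54.5 and 55.3 CPM on stiff substrates, with no overlap. The log2 fold change was −0.43 (standard error 0.097, 95% interval −0.64 to −0.23). *Steap3*, a ferrireductase of iron uptake, was at 66.4 and 72.2 CPM on soft and at 85.98 and 93.4 CPM on stiff substrates, a log2 fold change of −0.37 (95% interval −0.57 to −0.18). *Mfap2*, which encodes a protein of extracellular microfibrils, had 0 counts in both soft libraries and 9 in each stiff library. Against a floor of 3 counts over the soft group it was at least 6.64-fold lower on soft substrates, a difference that rests on few counts.

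Higher on soft substrates was *P2rx7*, an ion channel gated by extracellular ATP, at 11.3 and 9.41 CPM compared with 7.39 and 6.18 CPM on stiff substrates. Its log2 fold change was 0.62 (standard error 0.14, 95% interval 0.32 to 0.92). *Dusp3*, a phosphatase that acts on MAP kinases, was at 17.3 and 17.9 CPM on soft and 11.0 and 12.8 CPM on stiff substrates (log2 fold change 0.56, 95% interval 0.29 to 0.84). *Atf5*, a transcription factor of the stress response, was at 112 and 119 CPM on soft and 94.6 and 85.4 CPM on stiff substrates (0.36, 95% interval 0.18 to 0.54). *Eef2k*, the kinase that slows translation elongation, and *Slc38a7*, an amino acid transporter, differed by 0.43 (95% interval 0.21 to 0.65) and 0.30 (95% interval 0.14 to 0.45). *Fam189a2* was at 7.12 and 5.95 CPM on soft and 4.31 and 3.14 CPM on stiff substrates, a log2 fold change of 0.82 (95% interval 0.41 to 1.23). In none of these genes did the soft and stiff libraries overlap, but of all tested genes 31.2% also had no overlap at 12 h and 31.5% at 0 h.

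**Figure D2:**
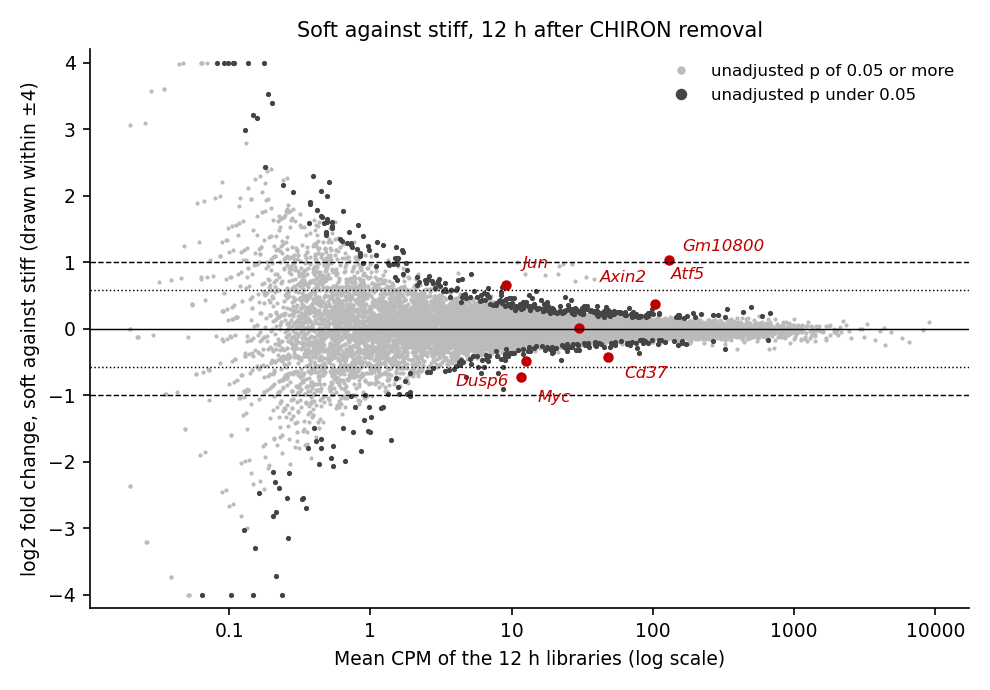
Log2 fold change of each of 14615 tested genes, soft against stiff at 12 h (drawn within ±4), by its mean CPM in the 12 h libraries (log scale), with dark points for an unadjusted p under 0.05. Dotted and dashed lines mark 1.5-fold and 2-fold, and above about the median CPM of 17.4 nearly all genes lay between the dotted lines.

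What the spread could exclude depended on expression level. For 9571 genes (65.5%) the 95% interval of soft against stiff lay within 1.5-fold in both directions, and for 11477 (78.5%) within 2-fold, each interval taken gene by gene without adjustment for their number. Among the 3654 genes with the highest CPM (60.2 or more) these shares were 99.6% and 99.97%. They were 99.2% and 99.8% in the next 3653 genes and 62.9% and 97.6% in the 3654 genes between 2.93 and 17.4 CPM. For the 3654 genes with the lowest CPM the interval lay within 1.5-fold in 0.27% and within 2-fold in 16.8%. The median standard error over all genes was 0.14, and the interval reached a median of 0.29 on either side of the log2 fold change, which corresponds to 1.22-fold. In order of falling expression, the 4 groups of genes had median reaches of 0.17, 0.23, 0.38 and 1.203. Shares of intervals within a fold in the gene lists below therefore depend on how abundant their members were.

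A gene that alone differed would have needed 1.87-fold at the median standard error to pass the adjusted threshold. This fold was 1.47 for the genes of highest expression, 1.65 and 2.30 for the next groups, and 14.1 for the genes of lowest expression. Fitted log2 fold changes beyond 1 in either direction occurred in 462 genes, of which 461 were in the group of lowest expression. The other was *Gm10800*, named after its values were seen. It belongs to a family of near-identical satellite-like genes that share reads, so its level is uncertain. Its level was 133.4 and 218.8 CPM on soft and 61.2 and 109.8 CPM on stiff substrates at 12 h, and between 9.45 and 461.6 CPM at 0 h. Both soft libraries were higher at 12 h, but libraries of a group lay far apart, and the 95% interval of its log2 fold change of 1.04 ran from −0.41 to 2.49. All 8 genes above the median CPM with a fitted difference over 1.5-fold were of this kind.

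Library by library, differences between substrates and between replicates had overlapping ranges. Over the 7307 genes above the median CPM, the SD of the log2 ratio was 0.17 between the soft replicates and 0.14 between the stiff replicates. Between a soft and a stiff library it ranged from 0.13 to 0.18 over the 4 pairs, which share libraries.

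**Figure D3:**
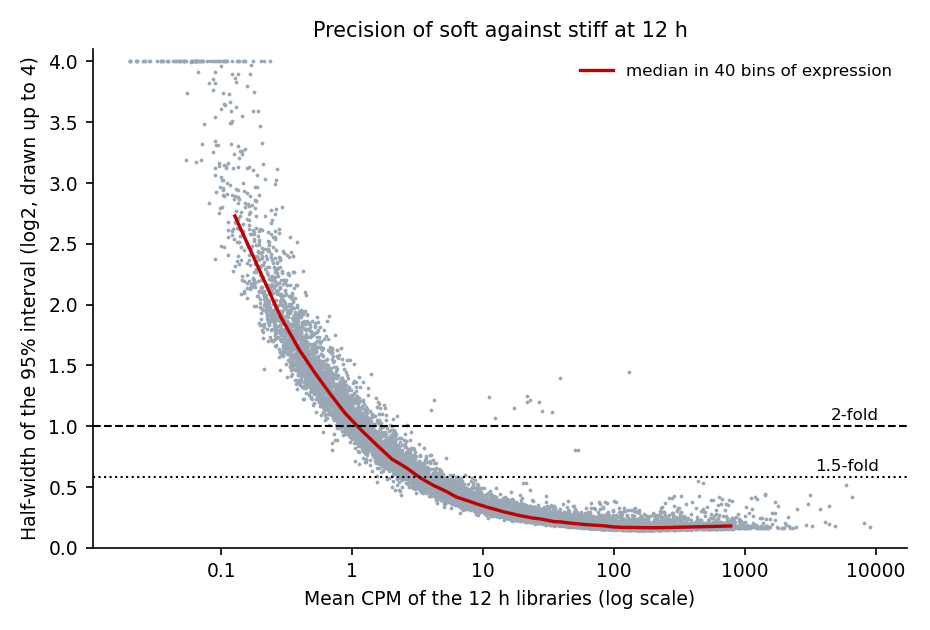
Distance from the log2 fold change to either end of its 95% interval (soft against stiff at 12 h, drawn up to 4) for each tested gene, by its mean CPM in the 12 h libraries (log scale), with the median over bins of expression as a line. The median line falls below the 2-fold line near 1 CPM and below the 1.5-fold line near 3 CPM.

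Most Wnt targets responded to CHIRON removal on both substrates. Of 26 targets and feedback genes, all tested, on soft substrates 16 fell (8.63% of all tested genes) and 2 rose (9.18%), and on stiff 15 fell (8.33%) and 2 rose (8.46%), by adjusted p under 0.05 in edgeR. In all, 17.8% of tested genes changed on soft and 16.8% on stiff substrates. Between soft and stiff at 12 h edgeR called 0 of the 26, with 2 higher and 4 lower on soft substrates at an unadjusted p under 0.05 (2.03% and 1.19% of all tested genes), and DESeq2 also called 0 of all genes. *Myc*, which marks this comparison and had the smallest p of all genes, was 1 of the 4 lower. The median log2 fold change of the 26 was 0.0022 compared with −0.0016 over all tested genes, and 13 were above 0, compared with 49.6% of all tested genes. The interval lay within 1.5-fold for 13 of the 26 and within 2-fold for 19, compared with 65.5% and 78.5% of all tested genes.

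*Axin2*, a scaffold of the complex that destroys β-catenin and a direct feedback target, was at 30.5 and 30.1 CPM on soft and 28.4 and 31.6 CPM on stiff substrates. The soft libraries lay within the range of the stiff libraries. The log2 fold change was 0.014 (standard error 0.090), and its 95% interval from −0.18 to 0.20 excluded a 1.5-fold difference. *Axin2* had fallen on soft (log2 fold change −2.65) and on stiff substrates (−2.58; adjusted p = 1.1e-12 and 1.3e-12, edgeR with Benjamini-Hochberg adjustment). *Sp5*, a zinc finger factor induced by β-catenin, had the smallest p of all genes for the response on each substrate. It fell on soft (log2 fold change −6.09, adjusted p = 1.8e-15) and on stiff substrates (−5.80, adjusted p = 5.4e-15, edgeR with Benjamini-Hochberg adjustment), to 2.36 and 2.43 CPM on soft and 2.57 and 2.13 CPM on stiff substrates. These groups overlapped, and the log2 fold change of 0.022 had a 95% interval from −0.41 to 0.45.

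The promoter of *Sp5* is shown with that of *T*, the mesoderm factor Brachyury. Both are Wnt targets and were chosen because their windows held a match to the letters below. Each sequence is the 250 bases before the transcription start in the RefSeq promoter table (GRCm38.p6), on the strand of the gene, with matches to the Tcf/Lef core letters CTTTGA, or TCAAAG on the other strand, in capitals. The windows are chr2:70474673-70474922 and chr17:8434173-8434422, both on the plus strand.
*Sp5*: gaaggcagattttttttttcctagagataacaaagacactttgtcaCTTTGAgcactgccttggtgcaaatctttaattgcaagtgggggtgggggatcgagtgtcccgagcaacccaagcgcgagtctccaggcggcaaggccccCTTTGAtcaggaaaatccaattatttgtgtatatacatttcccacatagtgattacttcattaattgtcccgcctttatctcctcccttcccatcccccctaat
*T*: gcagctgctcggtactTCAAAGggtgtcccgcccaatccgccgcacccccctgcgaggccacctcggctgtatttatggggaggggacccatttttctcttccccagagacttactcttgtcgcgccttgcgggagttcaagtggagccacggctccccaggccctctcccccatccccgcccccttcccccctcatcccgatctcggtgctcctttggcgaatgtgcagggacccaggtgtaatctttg
*Sp5* had 2 matches and *T* had 1, whereas *Gpld1*, *Cdx2* and *St8sia2*, the others of the 5 genes with the largest fall, had 0. Of 32851 such windows of all genes 13.83% held a match, as did 10.7% of those of tested genes, and of the 25 windows found for 17 Wnt targets 6 did (24%). A match describes the letters only and is no measure of binding.

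Other Wnt targets differed in either direction without passing the threshold. *Lef1*, itself a β-catenin partner, was at 1.46 and 1.47 CPM on soft and 1.85 and 2.82 CPM on stiff substrates, with a log2 fold change of −0.67 (95% interval −1.30 to −0.037). *Notum*, a secreted enzyme that inactivates Wnt proteins, was at 50.1 and 50.4 CPM on soft and 55.3 and 60.01 CPM on stiff substrates (−0.20, 95% interval −0.38 to −0.014). *Id3*, an inhibitor of basic helix-loop-helix factors, differed by −0.50 (95% interval −0.92 to −0.071), and *Cdx1*, a caudal homeobox factor, by 0.37 (0.038 to 0.70). *Nkd1*, a feedback inhibitor of Dishevelled, was at 3.63 and 3.46 CPM on soft and 2.77 and 2.34 CPM on stiff substrates, and its interval of −0.019 to 0.97 included 0. *Wif1*, a secreted Wnt inhibitor, had 6 and 5 counts on soft and 0 in both stiff libraries, at least 3.32-fold higher on soft substrates against a floor of 3 counts over the stiff group. The most abundant of the list, *Sfrp1*, also a secreted Wnt antagonist, overlapped between groups (378 and 335 CPM on soft, 348 and 368 CPM on stiff substrates) with a log2 fold change of −0.0045 (95% interval −0.18 to 0.17).

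**Figure D4:**
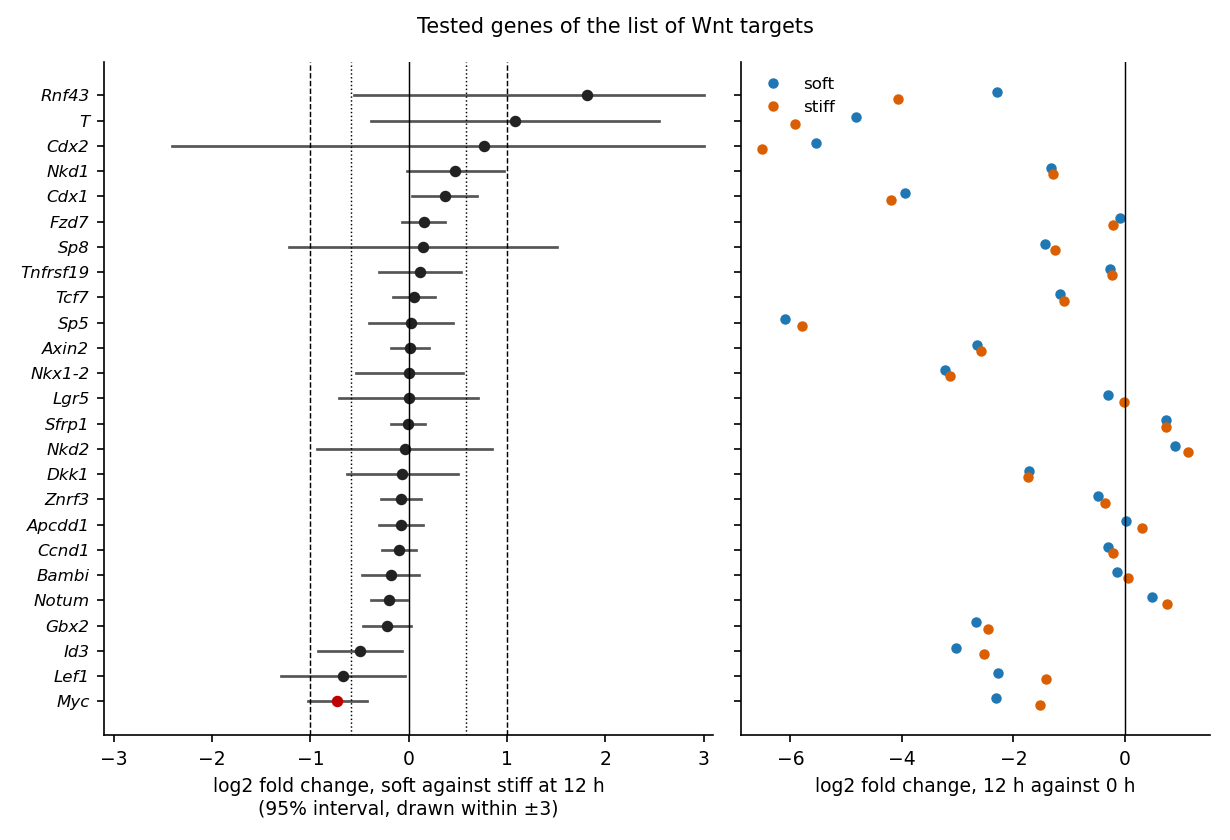
Left, log2 fold change of 25 Wnt targets and feedback genes, soft against stiff at 12 h, with 95% intervals (drawn within ±3); dotted and dashed lines mark 1.5-fold and 2-fold, and *Wif1* is not drawn because its stiff libraries had 0 counts. Right, log2 fold change of each gene at 12 h against 0 h on soft and stiff substrates, where *Sp5*, *Axin2* and *Cdx1* fell by similar amounts on both.

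Among 26 genes of the Tcf/Lef factors, β-catenin and the destruction complex, 0 were called and 0 had an unadjusted p under 0.05 in edgeR, compared with 3.22% of all tested genes. Their median log2 fold change was −0.019, and for 25 of the 26 the interval lay within 1.5-fold. *Tcf7l1*, the repressor that β-catenin relieves and the most abundant of them, was at 751 and 691 CPM on soft and 699 and 807 CPM on stiff substrates (−0.062, 95% interval −0.28 to 0.16). The smallest unadjusted p was 0.236, for the Dishevelled gene *Dvl2*.

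In the Myc family and Max network, *Myc* alone of 13 tested genes had an unadjusted p under 0.05, compared with 3.22% of all tested genes, and for the other 12 the interval lay within 1.5-fold. *Mycn*, the more abundant paralogue, was at 98.3 and 101 CPM on soft and 104 and 108 CPM on stiff substrates, a log2 fold change of −0.082 (95% interval −0.26 to 0.098). *Max*, the partner of both, was at 120 and 107 CPM on soft and 108 and 116 CPM on stiff substrates, with overlap. *Mga*, a repressive partner of Max and the most abundant member, differed by −0.047 (95% interval −0.35 to 0.26). A list of genes known to be regulated by Myc, mostly of ribosome biogenesis with some of metabolism and the cell cycle, had all 21 intervals within 1.5-fold. Their median was −0.060, and 3 were above 0, compared with 49.6% of all tested genes. In 7 both soft libraries were below both stiff libraries, compared with 15.2% of all tested genes. Such genes can move together, so these counts are not of independent genes. The summed level of the 21 genes overlapped between groups, at 8827 and 8606 CPM on soft and 9218 and 8676 CPM on stiff substrates. *Bop1*, a processing factor of the large subunit, had the smallest p of these, at 77.5 and 74.8 CPM on soft and 86.4 and 84.7 CPM on stiff substrates (−0.17, 95% interval −0.32 to −0.012).

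Targets of ERK were of interest because PD03, which blocks the activating kinase MEK, was still present. Of 19 immediate early and ERK feedback genes, 0 passed in edgeR, and 1 higher and 3 lower on soft substrates had an unadjusted p under 0.05, compared with 2.03% and 1.19% of all tested genes. The median was −0.054, with 8 of the 19 intervals within 1.5-fold and 14 within 2-fold. *Dusp6*, the phosphatase that switches off ERK, was at 10.0 and 11.1 CPM on soft and 15.8 and 13.7 CPM on stiff substrates. The groups did not overlap, and the log2 fold change was −0.50 (standard error 0.13, 95% interval −0.77 to −0.22, unadjusted p 0.0012, adjusted p 0.999 in edgeR with Benjamini-Hochberg adjustment). *Jun*, an AP-1 subunit, was at 12.7 and 9.47 CPM on soft and 7.13 and 7.09 CPM on stiff substrates, higher in both soft libraries. Its log2 fold change was 0.66 (standard error 0.17, 95% interval 0.29 to 1.02, unadjusted p 0.0015, adjusted p 0.999 in edgeR with Benjamini-Hochberg adjustment). The same order held at 0 h, where the log2 fold change of *Jun* was 0.56. *Junb* differed the other way (−0.41, 95% interval −0.78 to −0.040), as did *Dusp5*, another ERK phosphatase (−0.40, −0.76 to −0.039). *Etv5*, an ETS factor and the most abundant of the list, overlapped between groups (−0.057, 95% interval −0.23 to 0.11).

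Naïve pluripotency genes had mostly narrow intervals. For 14 of 15 naïve pluripotency genes the interval lay within 1.5-fold, and for all 15 within 2-fold, with a median of 0.019. Over all tested genes these shares were 65.5% and 78.5%, and among the 3654 genes with the highest CPM 99.6% and 99.97%. *Nanog*, *Esrrb* and *Pou5f1* are mESC markers outside the naming rule and were named after their values were seen. *Nanog* was at 845 and 972 CPM on soft and 937 and 934 CPM on stiff substrates, the stiff libraries within the soft range (−0.042, standard error 0.089, 95% interval −0.23 to 0.15). *Esrrb*, an orphan receptor downstream of GSK3 inhibition, differed by −0.035 (95% interval −0.21 to 0.14). *Klf2* had the smallest p of the list, at 669 and 785 CPM on soft and 584 and 655 CPM on stiff substrates (0.23, 95% interval 0.036 to 0.43). Of 8 general pluripotency genes the median was −0.066, and *Pou5f1*, encoding Oct4, was at 891 and 935 CPM on soft and 878 and 893 CPM on stiff substrates (0.044, 95% interval −0.12 to 0.20). *Utf1*, a chromatin factor of undifferentiated cells, was at 156 and 159 CPM on soft and 186.1 and 185.6 CPM on stiff substrates, without overlap (−0.24, 95% interval −0.43 to −0.047). The 11 tested formative genes had a median of −0.086 and the 11 tested primitive streak genes one of 0.19, none called by edgeR, where for all tested genes edgeR called 0 and 471 had an unadjusted p under 0.05. In the primitive streak list 1 interval lay within 1.5-fold, and 11 of its 17 members had enough counts to be tested. *T* was at 0.262 and 0.320 CPM on soft and 0.154 and 0.107 CPM on stiff substrates (1.08, 95% interval −0.38 to 2.55). STAT3 pathway genes, downstream of LIF, had a median of 0.0042 with all 10 intervals within 1.5-fold. BMP targets had a median of −0.18 over 10 genes, with 1 higher and 2 lower on soft substrates at an unadjusted p under 0.05 in edgeR. Over all tested genes these shares were 2.03% and 1.19%. *Id1* had the smallest p of the BMP targets, at 2.51 and 2.75 CPM on soft and 3.95 and 4.21 CPM on stiff substrates (−0.64, 95% interval −1.16 to −0.12).

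Genes through which cells sense and hold on to a substrate were described by list. For all 19 integrin and focal adhesion genes the interval lay within 1.5-fold. This share was 65.5% over all tested genes and 99.6% among the 3654 genes with the highest CPM. The median of the 19 was −0.019, and 0 had an unadjusted p under 0.05 in edgeR, compared with 3.22% of all tested genes. *Tns3*, which links integrins to actin, had the smallest p of these, at 206 and 203 CPM on soft and 235 and 213 CPM on stiff substrates (−0.13, 95% interval −0.31 to 0.046). Of 14 tested YAP targets and members of its pathway 12 intervals lay within 1.5-fold, with a median of −0.013. *Amotl1*, which binds YAP at junctions, was at 26.9 and 26.6 CPM on soft and 30.1 and 33.7 CPM on stiff substrates (−0.25, 95% interval −0.49 to −0.025). Of 16 tested SRF targets and cytoskeleton genes, 3 were above 0, compared with 49.6% of all tested genes, and the median was −0.050. Both soft libraries were above both stiff libraries in 2 of them and below in 3, compared with 16% and 15.2% of all tested genes. *Myl9*, the regulatory light chain of smooth muscle and non-muscle myosin, was at 0.562 and 0.384 CPM on soft and 1.54 and 1.33 CPM on stiff substrates. Both soft libraries were lower, and the log2 fold change of −1.54 had a 95% interval from −2.61 to −0.48. *Myl9* already had a log2 fold change of −1.41 at 0 h. *Actb*, in contrast, differed by −0.016 (95% interval −0.22 to 0.19). Matrix and basement membrane genes had a median of −0.069 over 15 tested genes, with *Col18a1* at −0.16 (95% interval −0.34 to 0.013). Cell junction genes had a median of −0.0046 over 15 genes. The claudin *Cldn3* was at 3.93 and 3.58 CPM on soft and 2.36 and 2.24 CPM on stiff substrates (0.71, 95% interval 0.17 to 1.26), and *Cdh1*, the E-cadherin of mESC contacts, differed by −0.046 (95% interval −0.23 to 0.13).

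Metabolic and growth genes were likewise described by list. Of 16 sterol synthesis genes, 14 were above 0 and 8 had both soft libraries above both stiff libraries, compared with 49.6% and 16% of all tested genes. Their median was 0.065, compared with −0.067 after PD03 removal, and all 16 intervals lay within 1.5-fold. Summed over the list, the level was 3848 and 3769 CPM on soft and 3707 and 3521 CPM on stiff substrates. Members of 1 pathway can move together, so these counts are not of independent genes. *Insig1*, the brake on the SREBP pathway, was at 160.3 and 162 CPM on soft and 137 and 144 CPM on stiff substrates (0.20, 95% interval 0.045 to 0.35). The 16 stress response and heat shock genes had a median of 0.059 with 3 higher on soft substrates at an unadjusted p under 0.05, compared with 2.03% of all tested genes. *Trib3*, a target of the stress factor ATF4, had the smallest p of these (0.34, 95% interval 0.11 to 0.57). Glycolysis and hypoxia genes had a median of 0.0048 over 19 tested genes, and *Vegfa* differed by 0.18 (95% interval −0.032 to 0.40). Among 16 cell cycle genes the median was −0.048, and *Ccne1*, cyclin E1, was at 100.1 and 99.7 CPM on soft and 117 CPM in both stiff libraries (−0.23, 95% interval −0.39 to −0.065). The 13 protein-coding genes of the mitochondrial genome had a median of −0.17, with 3 above 0 and 8 intervals within 1.5-fold. Of all tested genes 49.6% were above 0 and 65.5% had such intervals. Mitochondrial genes took 2.27% and 2.86% of all counts on soft and 2.63% and 3.13% on stiff substrates, and the part of this difference between libraries in the list's median was not tested.

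The genes that answered CHIRON removal were compared as a whole. By the mean over both substrates 30.7% of tested genes changed, and 290 fell and 340 rose with an absolute log2 fold change above 1 (edgeR, adjusted p under 0.05). The genes that fell most and in the same direction in every library were *Gpld1*, *Cdx2*, *Sp5*, *T* and *St8sia2*. *Gpld1*, a phospholipase that cleaves GPI anchors, had 0 counts in all 4 libraries at 12 h, and *Cdx2*, a caudal homeobox factor, had 4 and 0 on soft and 1 in each stiff library. The corresponding genes that rose were *Cldn9*, *Lefty1*, *Gap43*, *Neurog1* and *Lrrc4*. *Lefty1*, an inhibitor of Nodal, reached 2.70 and 2.69 CPM on soft and 2.57 and 3.73 CPM on stiff substrates, with overlap (−0.22, 95% interval −1.04 to 0.60).

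The median log2 fold change against 0 h of the genes that fell was −1.61 on soft and −1.57 on stiff substrates, and that of the genes that rose was 1.34 and 1.35. Over these genes together, the slope through 0 of the response on soft against that on stiff was 0.816, not corrected for error in the stiff response. Pearson r was 0.859. The response was larger in size on stiff substrates for 53.8% of the genes that fell and 52.4% of those that rose. Over all tested genes it was larger on stiff substrates for 50.9%. Between soft and stiff at 12 h, edgeR called 0 of these genes, with 33 that fell (11.4%) and 8 that rose (2.35%) at an unadjusted p under 0.05. Over all tested genes this share was 3.22%, and DESeq2 called 0 of all genes. The choice of the responsive genes used the same 12 h libraries and the same estimate of each gene's spread. A spread estimated too small favours both the choice and a small p here, so these shares are not directly comparable. On soft substrates 19 of the 33 were higher and 14 lower, and of the 8, 2 were higher and 6 lower. Of all tested genes 2.03% were higher and 1.19% lower at this p. The median of the genes that fell was 0.080, or 0.064 with genes at 0 counts on 1 substrate set at their bound, and 58.3% of them were above 0 compared with 49.6% of all tested genes. This median depended on the libraries. It was −0.022 without soft replicate 1, 0.0095 without soft replicate 2, 0.14 and 0.15 without stiff replicates 1 and 2, and 0.13 without stiff replicate 2 at 0 h. The genes that rose had a median of −0.020, which was 0.051 without soft replicate 1 and −0.13 without stiff replicate 1, and was nearer 0 without soft replicate 2 (−0.0031), stiff replicate 2 (−0.011) or soft replicate 1 at 0 h (−0.0053) and farther from it without stiff replicate 1 at 0 h (−0.035) or stiff replicate 2 at 0 h (−0.032). Genes that fell had a median of 1.10 CPM at 12 h, and 24.1% of their intervals lay within 1.5-fold, as did 30.9% of those that rose.

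**Figure D5:**
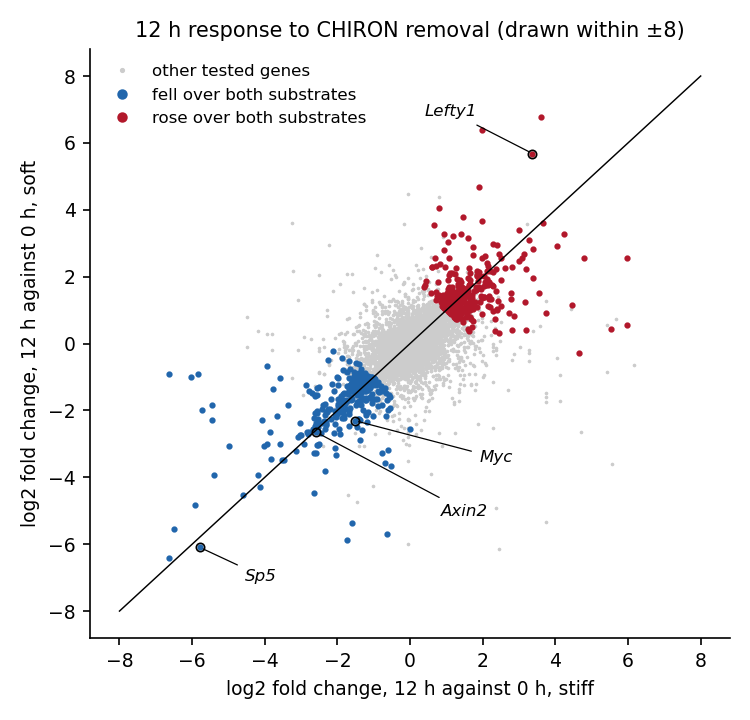
Log2 fold change at 12 h against 0 h of CHIRON removal on soft (vertical) and stiff (horizontal) substrates for all tested genes, with the 290 genes that fell and the 340 that rose over both substrates in colour and the line of equal response. *Axin2* and *Sp5* lay near the line, and *Myc* lay below it.

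Tested directly, the response differed between substrates for 0 of 14615 genes in edgeR after Benjamini-Hochberg adjustment, with 415 at an unadjusted p under 0.05, and DESeq2 gave 0 and 226. Before removal, at 0 h, soft and stiff differed for 0 genes, with 508 unadjusted, and DESeq2 gave 0 and 292. Without stiff replicate 1 at 0 h, edgeR called 10 genes for the response and 12 at 0 h. All were satellite-like genes of the *Gm10800* family, and this fit left stiff replicate 2 at 0 h, where *Gm10800* was at 9.45 CPM, as the lone library of its group.

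The same comparison after PD03 removal, in libraries that share no sample with those of CHIRON removal, called 103 of 13389 genes (0.769%), 39 higher (0.291%) and 64 lower (0.478%) on soft substrates, and DESeq2 called 72. This count depended on each library, with 32 and 28 genes without soft replicates 1 and 2 and 14 and 21 without stiff replicates 1 and 2. Over the alternatives that kept all libraries the count ranged from 72 to 184, the highest without the filter on low counts. Replicates differed less in the PD03 removal experiment. Its biological coefficient of variation was 0.0387 compared with 0.0797 after CHIRON removal, and its median standard error 0.098 compared with 0.14. *Myc* was one of the genes lower on soft substrates after PD03 removal, at 14.2 and 11.0 CPM on soft and 19.8 and 18.1 CPM on stiff substrates. All soft libraries were again below the stiff libraries, and the log2 fold change of −0.59 (standard error 0.13) had an adjusted p of 0.021 (edgeR, Benjamini-Hochberg). The difference between the experiments was −0.13 for *Myc* (95% interval −0.55 to 0.29). *Dusp6* was also lower on soft substrates after PD03 removal (−0.39, adjusted p = 0.00034, edgeR with Benjamini-Hochberg adjustment), as was *Utf1* (−0.52, adjusted p = 0.0029, edgeR with Benjamini-Hochberg adjustment).

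Of the 39 genes higher on soft substrates after PD03 removal, 27 were above 0 after CHIRON removal, where 49.6% of all tested genes were, and their median log2 fold change was 0.31 after PD03 removal and 0.079 after CHIRON removal. Of the 64 lower genes 63 were tested after CHIRON removal, where 17 were above 0 and the median was −0.11 compared with −0.33 after PD03 removal. Because these genes were chosen by their values after PD03 removal, the medians there are raised in size by the choice and are not comparable with those after CHIRON removal. At an unadjusted p under 0.05 after CHIRON removal were 5 of the higher and 7 of the lower genes, compared with 3.22% of all tested genes. For 92.3% of the higher and 69.8% of the lower genes the interval after CHIRON removal lay within 1.5-fold. In a joint fit over 14742 genes the substrate difference itself differed between the experiments for 0 genes in edgeR, with 737 at an unadjusted p under 0.05, and DESeq2 gave 0 and 540. Without stiff replicate 1 of CHIRON removal at 12 h edgeR called 1 gene, *C130073F10Rik*, named after its values were seen, with a log2 difference of −1.12 (adjusted p = 0.041, edgeR with Benjamini-Hochberg adjustment), and over the alternatives the smallest adjusted p of any gene ranged from 0.041 to 0.990.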

How the data were processed

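The authors trimmed reads with Trim Galore, aligned them to GRCm38/mm10 with TopHat 2.1.0 and counted them per gene of Ensembl release 86 with featureCounts 1.5.0, per their processing notes and methods, and deposited raw counts for each experiment. The strand setting was not given in the sources used here, which leaves overlapping and antisense genes with uncertain counts. The CHIRON removal counts held 48709 genes, of which 48349 matched GENCODE M21 and 21695 were protein-coding. The PD03 removal counts held 35022 genes (34765 matched, 19260 protein-coding) after 23 lines with no gene were left out. Each file had 15 date-like names, which in the CHIRON removal file were matched by gene ID and in the PD03 removal file were not matched. The latter also had 12 unused columns from further samples. The library of stiff at 2 h replicate 1 (171333 counts), which the study discarded, was left out.

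Protein-coding genes that passed filterByExpr (minimum count 10, minimum total count 15) were scaled by TMM and fitted with all groups of substrate and time in edgeR 4.0.16 (quasi-likelihood F test, R 4.3.3, limma 3.58.1), 14615 genes in 11 libraries of CHIRON removal and 13389 in 12 libraries of PD03 removal. Benjamini-Hochberg adjustment ran over all tested genes, and 0.05 was the threshold. Intervals were 95% t intervals of the same fit, and like the floors of 3 counts for groups at 0 they take the counts as independent molecules. Values of a library are CPM with TMM scaling. Both experiments were also fitted together on 14742 genes to compare their substrate differences. DESeq2 1.42.0 was an alternative, with others given in the closing section. The procedure was tested on simulated data. Python 3.11.15 (matplotlib 3.10.9, numpy 2.4.6, pandas 2.3.3) served for tables and figures.

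Genes were named by a rule. It took *Myc*, the genes up to 10 with the smallest p for soft against stiff at 12 h, the 5 genes in each direction with the largest mean response that moved the same way in every library, and from 27 gene lists the member with the smallest p and the most abundant member, with any tested Wnt target, Myc family or ERK feedback gene allowed. The label check also names *Dcn* and *Foxa2*, chosen after their values were seen. The members and the lists were chosen with earlier results of these data known. Genes of a list can move together, so counts within a list are not of independent genes. The labels state no pairing of libraries, and replicate numbers were not used as pairs. In the CHIRON removal experiment the tube labels carried a second numbering, which differed from the replicate numbers of the titles in some groups. A block by these tube numbers was among the alternatives.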

Additional observations from a re-analysis of the deposited data

How the results depend on the processing

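Over the alternatives, 0 genes differed between soft and stiff at 12 h in edgeR with each fit but 1. Without the filter on low counts 15 genes passed, 12 higher and 3 lower on soft substrates, of which 11 were satellite-like genes of the *Gm10800* family and the others *Myc*, *Fam189a2*, *Lefty2* and *Atp6v0c*, the last 2 named after their values were seen. In that fit all 20012 genes shared 1 prior spread, and *Myc* was at −0.73 on the log2 scale (adjusted p = 0.00028, edgeR with Benjamini-Hochberg adjustment; 0.00028 to 1 over the alternatives). It also called 7 genes for the difference in response, 17 at 0 h and 184 after PD03 removal. Libraries were left out in turn from the groups compared, for the difference between experiments only the 4 of CHIRON removal at 12 h. This gave 0 genes at 12 h (413 to 821 at an unadjusted p under 0.05), 0 to 12 at 0 h, 0 to 10 for the response, 14 to 32 after PD03 removal, and 0 to 1 for the difference between experiments. The log2 fold change of *Myc* ranged from −0.81 to −0.64 and the share of intervals within 1.5-fold from 56.4% to 65.8%. In these fits the lone library of a group is assumed to vary like the other groups. The fit at 12 h without stiff replicate 2 at 0 h was chosen after seeing the data. With the discarded shallow library added (all 12 libraries), 38.8% of intervals lay within 1.5-fold and 60 genes had an unadjusted p under 0.05 at 12 h. The median of the genes that fell was 0.050 with all 12 libraries, 0.051 with a block by tube number, 0.054 when both substrates had to pass and 0.0036 with no minimum fold, and −0.022 to 0.15 with a library left out, where that of the genes that rose was −0.13 to 0.051. With only the groups compared, 174 genes differed after PD03 removal. Same-numbered libraries did not deviate together (correlation 0.0097 between soft and stiff at 12 h), and with the replicate number of the titles as a block edgeR called 0 genes at 12 h (399 unadjusted), 0 at 0 h, 0 for the response and 114 after PD03 removal. DESeq2 gave 0 and 273 at 12 h. Of 745 values followed for 63 genes other than *Myc*, taken by the naming rule, 1 newly passed. It was *Fam189a2* without the filter (adjusted p = 0.049, edgeR with Benjamini-Hochberg adjustment), in the direction of the main fit. This count does not cover changes of sign in values near 0. Without stiff replicate 2, for instance, both soft libraries of *Sp5* were below the remaining stiff library. Where a value moved and its fit does not show why, the cause was not tested.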
